A study of Rattus norvegicus with 6 samples.

Results

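The 36 genes described here encode the mitochondrial machinery that takes pyruvate, glutamate and ketone bodies into the tricarboxylic acid (TCA) cycle, turns the cycle and carries its acids across the inner membrane. They were chosen by name from a deposited table of 34045 rat genes. Of the 36 names, 34 stood in the table as written. Idh3b was listed with other capitals, and Pcx under its current symbol Pc, matched through a RefSeq synonym. Expression had been measured by RNA sequencing of tissue from defects made in the skull roof (calvaria) of male wild type Sprague-Dawley rats, taken 4 weeks after surgery. In 3 libraries the defect had received the CGG hydrogel and in 3 the CGG-Cit hydrogel. The labels spell out neither name and give no age. The series title describes hydrogels that hold a metabolite of the TCA cycle, and the comparison bears on how the genes of that cycle stood in tissue exposed to each gel. Whether each library came from its own rat is not stated, so p-values reflect the spread among libraries alone, and that spread may be technical.

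Pyruvate made by glycolysis enters the mitochondrion through a carrier and is either oxidised to acetyl-CoA by the pyruvate dehydrogenase complex or carboxylated to oxaloacetate. Citrate synthase joins acetyl-CoA with oxaloacetate, and the cycle then oxidises citrate back to oxaloacetate while it feeds electrons to the respiratory chain. Anaplerosis is the refilling of the cycle from pyruvate or glutamate, and cataplerosis the withdrawal of its acids for synthesis. Skeletal muscle fibres, above all the oxidative ones, are rich in mitochondria, and bone-forming cells are known for exporting citrate into the mineral.

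Of the 36 members, 10 fell and 1 rose in CGG-Cit. The 10 that fell were Mpc2, Pdhb, Pdk2, Pdk3, Idh3a, Idh3g, Sucla2, Fh, Mdh2 and Pck2, by 0.52 to 0.79 on the log2 scale, and the gene that rose was Glud1, by 0.33. Values are FPKM (fragments per unit of gene length and library size, as deposited), and fold changes are CGG-Cit minus CGG on log2(FPKM + 1). A gene passed at a Benjamini-Hochberg adjusted p under 0.05 over the 15965 genes tested with limma. All 36 members lay above the filter on low values. The 10 falls made up 27.8% of the members, against 9.78% of all genes tested, and the 1 rise made up 2.78%, against 7.75%. Among the 8031 genes whose mean level lay within the members' range, 11.1% fell and 10.3% rose. The median log2 fold change over the members was -0.25, against 0.002 over all genes tested. In 14 members every CGG-Cit library lay below every CGG library, and in 2 members, Glud1 and Suclg2, every one lay above. Of all genes tested, 22.1% lay below in this way and 19.6% above, 41.7% in either direction.

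These calls rested on few libraries. With 1 library left out, 9 falls were counted on removal of CGG 1, 1 on removal of CGG 2 and 0 on removal of CGG 3. For the other group, 1 was counted on removal of CGG-Cit 1, 0 on removal of CGG-Cit 2 and 9 on removal of CGG-Cit 3. In the limma fits with 0 falls, 10 members without CGG 3 and 12 without CGG-Cit 2 still had a negative fold change at an unadjusted p under 0.05, and voom was run on all 6 libraries only. Over all genes the falls dropped likewise, from 1561 to 190 without CGG 3 and to 249 without CGG-Cit 2. The rise of Glud1 did not pass when any of the 6 libraries was left out. Where every library was instead rescaled to the same sum (TPM), 7 members fell and 1 rose. Of the 15965 genes tested, 948 fell and 2203 rose under that scaling. There the median of all genes stood at 0.16 and that of the members at -0.07, with 21 members below 0 and 15 above.

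**Figure D1:**
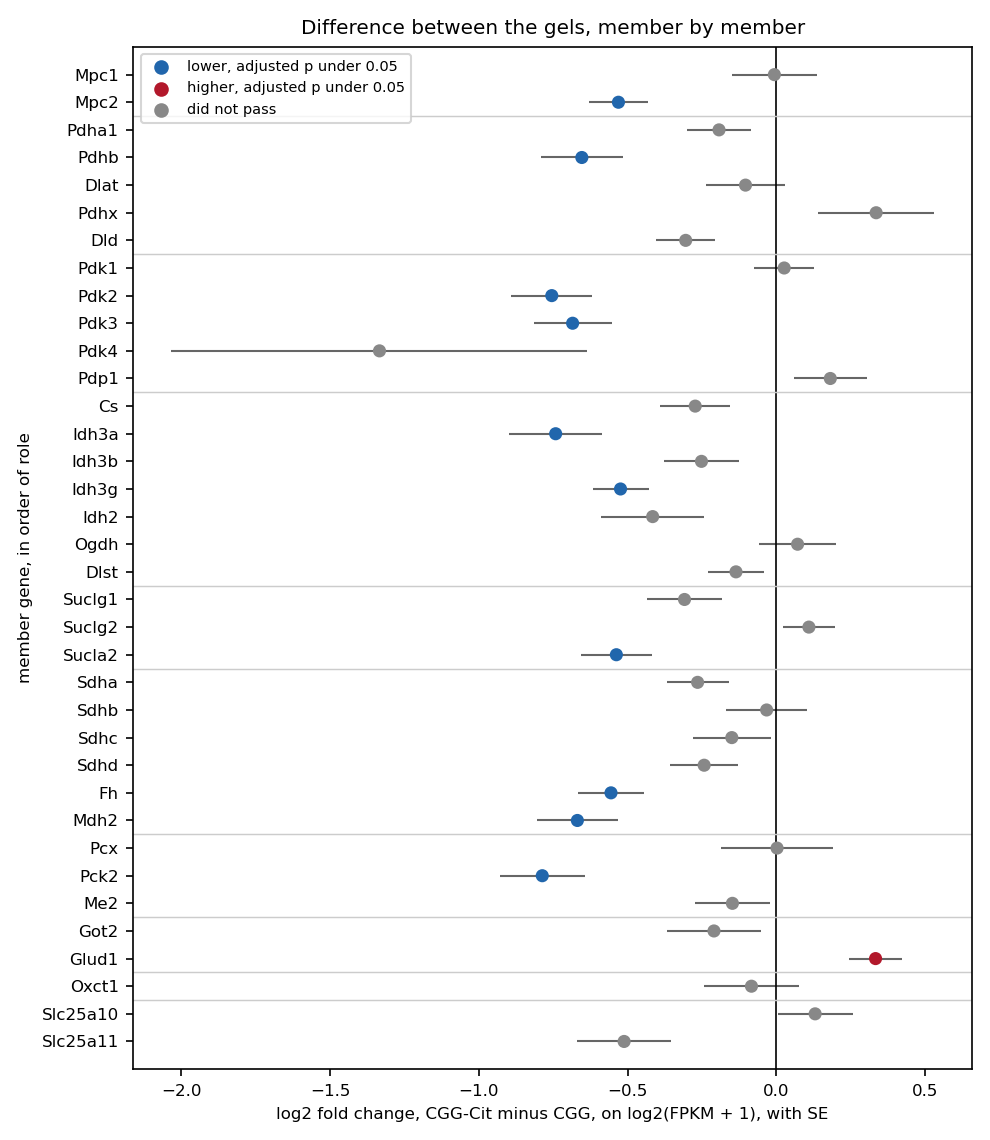
Log2 fold change of each of the 36 members (x axis, CGG-Cit minus CGG on log2(FPKM + 1), point with SE from limma, n = 3 libraries a group), in order of role from top to bottom. Blue points fell, the red point rose and grey points did not pass; 28 members lie left of 0, and Pdk4 has the widest error.

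The libraries were even in depth, with 14744207 to 16224920 fragments recovered from the FPKM values, and the least covered member, Pdk4 in CGG-Cit 1, rested on 84 of them. Markers of tissue makeup moved with the gels beside every value below. All 14 skeletal muscle markers tested fell, and the summed level of the 15 measured was 7849 to 10380 FPKM in CGG and 53.9 to 427.8 FPKM in CGG-Cit, with Myh7 listed at 0 in CGG-Cit 1 and CGG-Cit 2. All 11 neutrophil markers tested and all 9 erythroid markers fell as well, with sums of 15300 to 17470 and 24450 to 29860 FPKM in CGG and of 2462 to 6355 and 7915 to 15640 FPKM in CGG-Cit. The 10 cell cycle genes fell too, from sums of 438.4 to 600.7 FPKM to sums of 215.4 to 331.0 FPKM. In the other direction, 10 of 12 macrophage markers and 6 of 10 fibroblast markers rose, with sums of 991.1 to 1144 and 1954 to 3204 FPKM in CGG and of 1831 to 2660 and 3887 to 4844 FPKM in CGG-Cit. In bulk tissue, fewer cells of a type and less RNA per cell cannot be told apart. The tissue's own markers were present: the 10 osteoblast markers summed to 10710 to 15300 FPKM in CGG and to 5175 to 9689 FPKM in CGG-Cit, and 5 of them fell.

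**Figure D2:**
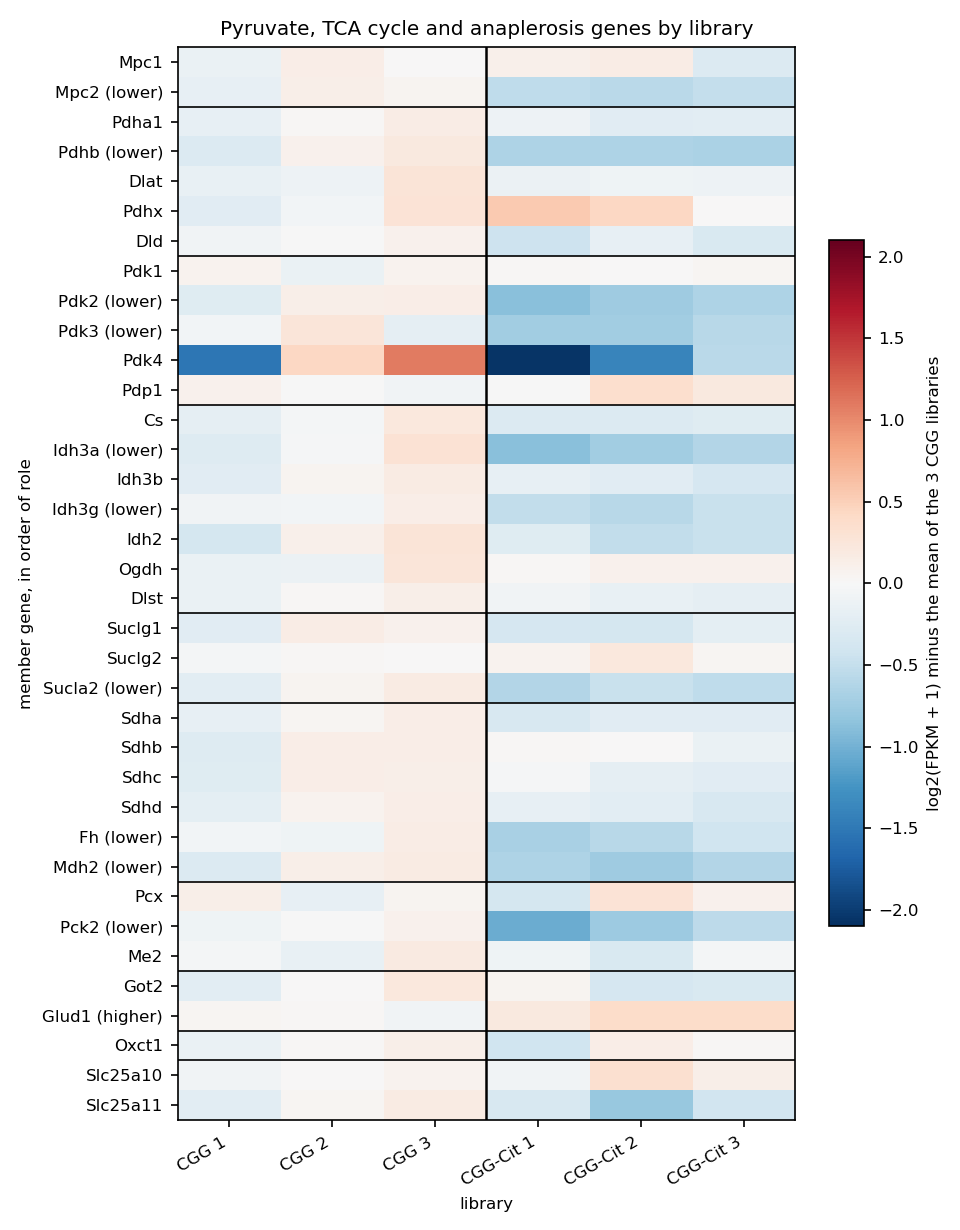
Each row is 1 member and each column 1 library, coloured by log2(FPKM + 1) minus the mean of the 3 CGG libraries, with lines between roles. The 3 CGG-Cit columns are mostly blue, the CGG 1 column is bluer than CGG 2 and CGG 3, and Pdk4 runs from deep blue in CGG 1 to red in CGG 3.

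The mitochondrial pyruvate carrier is made of 2 different proteins, and the gene of 1 of them fell. Mpc2 (ENSRNOG00000003150, listed on chromosome 13 from 83681322 to 83700213), the most abundant of the 36 members, measured 142.5, 173.6 and 165.9 FPKM in CGG 1, 2 and 3 and 110.9, 108.2 and 112.4 FPKM in CGG-Cit 1, 2 and 3. The CGG-Cit libraries all lay below the CGG libraries and close to one another. Mpc2 fell by 0.53 ± 0.1 (SE; limma adjusted p = 0.0211), and it lost the call on removal of the second or the third CGG library or of the first or the second CGG-Cit library (highest adjusted p 0.0788). Mpc1, its partner, measured 55.84, 67.79 and 62.14 FPKM in CGG and 66.75, 68.87 and 50.41 FPKM in CGG-Cit. The groups overlapped and the log2 difference was -0.01 ± 0.144 (SE; limma adjusted p = 0.978). The ratio of Mpc1 to Mpc2 was 0.375 to 0.392 in the CGG libraries and 0.449 to 0.637 in the CGG-Cit libraries. These ranges do not overlap, with an exact two-sided permutation p of 0.1, the smallest that 3 against 3 allows, and an adjusted p of 0.3 over the 6 ratios tested.

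Within the pyruvate dehydrogenase complex only the gene of the beta subunit of its first enzyme passed. Pdhb (ENSRNOG00000007895, listed on chromosome 15 from 18539210 to 18546854) measured 30.93, 40.34 and 44.11 FPKM in CGG and 23.91, 24.00 and 23.54 FPKM in CGG-Cit. It fell by 0.65 ± 0.137 (SE; limma adjusted p = 0.026), and the same 4 removals ended the call (CGG 2 and 3, CGG-Cit 1 and 2; highest adjusted p 0.0847). Pdha1, the alpha subunit of the same enzyme, had means of 48.35 ± 5.706 FPKM for CGG and 42.02 ± 2.157 for CGG-Cit (SD, n = 3; limma adjusted p = 0.253). Dlat, the acetyltransferase core, averaged 17.25 ± 3.145 and 15.82 ± 0.201 FPKM (limma adjusted p = 0.613). Dld, the lipoamide dehydrogenase that this complex shares with the oxoglutarate dehydrogenase complex, averaged 37.5 ± 2.281 and 30.22 ± 2.846 FPKM, with no overlap between groups and a limma adjusted p of 0.0817. Pdhx, which anchors that dehydrogenase in the complex, averaged 9.543 ± 1.965 and 12.32 ± 2.544 FPKM (limma adjusted p = 0.265). The 5 subunits therefore held fold changes from -0.65 to 0.34 on the log2 scale.

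The kinases that switch the complex off by phosphorylating its first enzyme held differences from -1.33 to 0.03 on the log2 scale, and 2 of the 4 kinase genes fell. Pdk2 (ENSRNOG00000004172, listed on chromosome 10 from 82839153 to 82852660), a widely expressed kinase, measured 17.15, 22.63 and 22.75 FPKM in CGG and 10.85, 11.86 and 12.90 FPKM in CGG-Cit. It fell by 0.76 ± 0.136 (SE; limma adjusted p = 0.0193). Pdk3 (ENSRNOG00000012513, listed on chromosome X from 62836131 to 62903554) measured 27.03, 33.65 and 24.61 FPKM in CGG and 16.51, 16.58 and 18.46 FPKM in CGG-Cit, and fell by 0.69 ± 0.131 (SE; limma adjusted p = 0.0216). Both pairs of groups stood clear of each other. Pdk2 lost the call on removal of the second or the third CGG library or of the first or the second CGG-Cit library (highest adjusted p 0.0729). Pdk3 lost it likewise, but with the first CGG library in place of the second (highest adjusted p 0.078). Pdk1, known as a target of hypoxia signalling, had means of 10.72 ± 1.0 FPKM for CGG and 10.9 ± 0.115 for CGG-Cit (SD, n = 3), a log2 difference of 0.03 ± 0.1 (SE; limma adjusted p = 0.874).

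Pdk4 (ENSRNOG00000009565, listed on chromosome 4 from 30546664 to 30556814), the kinase gene induced by fasting and fatty acids and abundant in oxidative muscle, had the largest fold change of the members and the least certain one. It measured 5.498, 24.12 and 38.92 FPKM in CGG 1, 2 and 3 and 3.494, 6.137 and 11.67 FPKM in CGG-Cit 1, 2 and 3. CGG 1 lay within the CGG-Cit range, so the groups overlapped. The log2 difference of -1.33 ± 0.699 (SE) did not pass (limma adjusted p = 0.223), and stood at -2.096 without CGG 1 (adjusted p = 0.0533) and at -0.79 without CGG 3 (adjusted p = 0.498). Pdk4 made up 9.0%, 26.8% and 39.9% of the summed FPKM of the 4 kinase genes in CGG and 8.4%, 13.5% and 21.6% in CGG-Cit. Within CGG, Mb, the oxygen-storing myoglobin of oxidative fibres, was likewise low in CGG 1 (94.61 FPKM, against 881.8 and 792.7 in CGG 2 and CGG 3), whereas Pvalb, the parvalbumin of fast fibres, was highest there (1057 FPKM, against 292.2 and 395.7). Both were picked after their values were seen, and the part of fibre type in the level of Pdk4 was not tested. Pdp1, the catalytic subunit of a phosphatase that switches the complex back on, had means of 10.09 ± 0.634 and 11.63 ± 1.584 FPKM (limma adjusted p = 0.332).

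**Figure D3:**
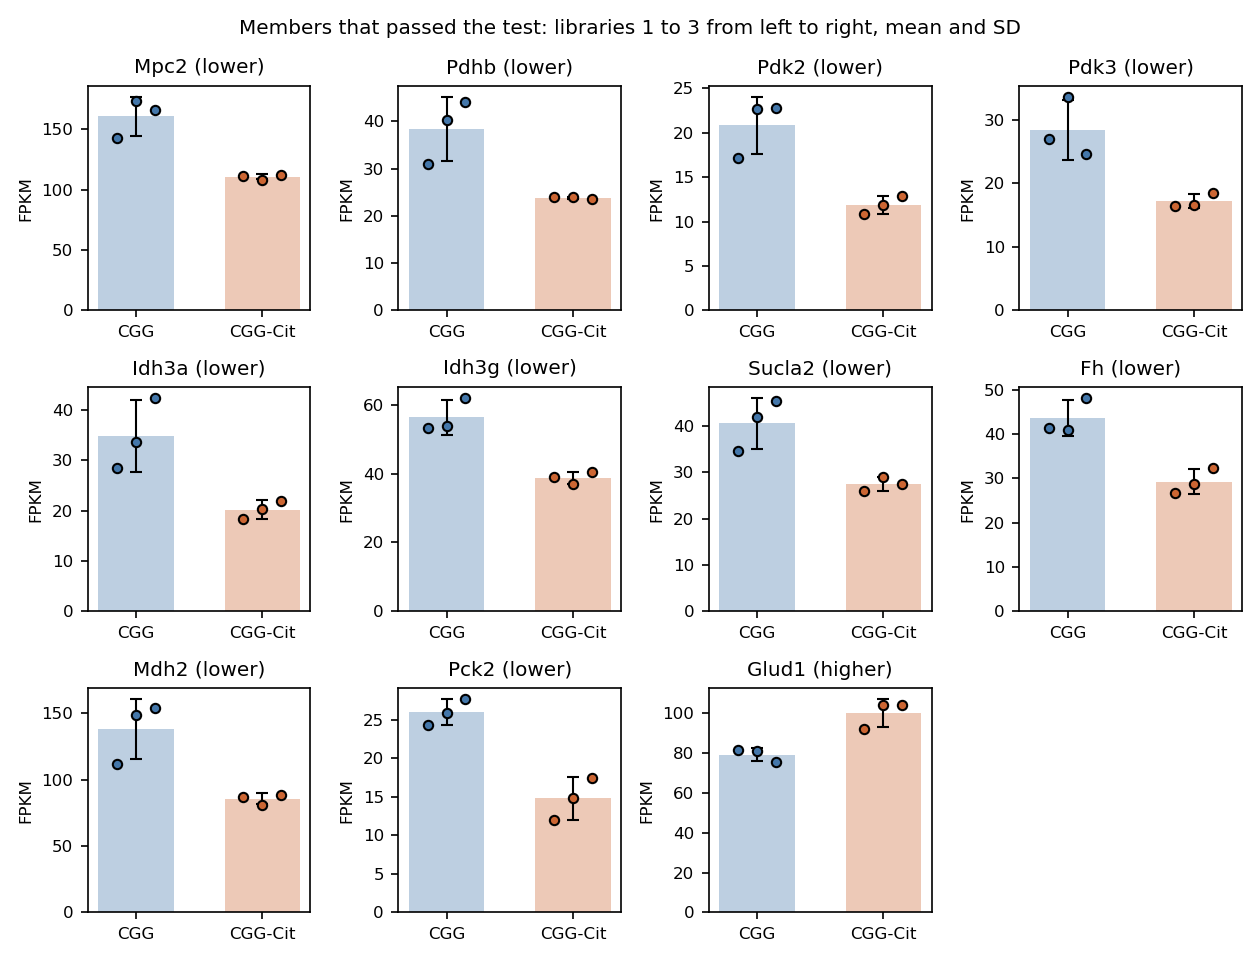
FPKM of the 11 members that passed, 1 panel each, with a point for each library (1 to 3 from left to right), a bar at the group mean and an error bar of 1 SD; each axis starts at 0. The CGG-Cit points lie below all CGG points in 10 panels and above them in the Glud1 panel.

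In the first span of the cycle, from citrate to succinyl-CoA, the 2 genes that fell encode subunits of the NAD-dependent isocitrate dehydrogenase. Idh3a (ENSRNOG00000010277, listed on chromosome 8 from 59164572 to 59183908), its catalytic subunit, measured 28.41, 33.65 and 42.43 FPKM in CGG and 18.30, 20.31 and 22.00 FPKM in CGG-Cit, and fell by 0.74 ± 0.157 (SE; limma adjusted p = 0.0264). Idh3g (ENSRNOG00000055572, listed on chromosome X from 156999826 to 157008733), a regulatory subunit, measured 53.17, 53.70 and 62.02 FPKM in CGG and 38.92, 37.00 and 40.41 FPKM in CGG-Cit, and fell by 0.52 ± 0.0941 (SE; limma adjusted p = 0.0192). In both genes the lowest CGG library was above the highest CGG-Cit library. Both lost the call on removal of the second or the third CGG library or of the first or the second CGG-Cit library (highest adjusted p 0.0855 for Idh3a and 0.0711 for Idh3g), and Idh3g also under TPM (0.069). Idh3b, the third subunit, averaged 54.33 ± 7.901 and 45.22 ± 3.093 FPKM in CGG and CGG-Cit (SD, n = 3) and did not pass (limma adjusted p = 0.207).

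The NADP-dependent enzyme gene Idh2, whose product supplies reducing power inside the mitochondrion, averaged 82.8 ± 17.99 and 60.97 ± 6.077 FPKM in CGG and CGG-Cit (limma adjusted p = 0.142). Without CGG 1, the CGG library in which it was lowest (62.94 FPKM), Idh2 passed at an adjusted p of 0.0489. Its ratio to the mean of the 3 Idh3 genes was 1.48 to 1.83 in CGG and 1.64 to 1.94 in CGG-Cit (exact permutation p = 0.7). Cs, citrate synthase, measured 79.24, 87.59 and 105.6 FPKM in CGG and 74.12, 74.05 and 75.19 FPKM in CGG-Cit. Its groups did not overlap, but it did not pass (log2 difference -0.27 ± 0.118 SE; limma adjusted p = 0.15). Ogdh and Dlst, the first and second enzymes of the oxoglutarate dehydrogenase complex, averaged 19.03 ± 3.273 and 50.3 ± 4.472 FPKM in CGG. They averaged 19.87 ± 0.589 and 45.59 ± 2.005 FPKM in CGG-Cit, with limma adjusted p values of 0.728 and 0.349.

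Succinyl-CoA synthetase, the step that makes ATP or GTP directly, pairs 1 alpha subunit with either of 2 beta subunits, and the gene of 1 beta subunit fell. Sucla2 (ENSRNOG00000017481, listed on chromosome 15 from 55461695 to 55516952), the ADP-specific beta subunit that prevails in muscle and brain, measured 34.54, 41.77 and 45.31 FPKM in CGG and 25.90, 29.02 and 27.49 FPKM in CGG-Cit. It fell by 0.54 ± 0.119 (SE; limma adjusted p = 0.029), but not under TPM (0.0614) nor on removal of any library other than CGG 1 (highest adjusted p 0.0921). Suclg2, the GDP-specific beta subunit that prevails in liver and kidney, measured 24.04, 25.23 and 24.69 FPKM in CGG and 26.01, 28.79 and 25.32 FPKM in CGG-Cit. Its CGG-Cit libraries lay just above the CGG libraries, and it did not pass (log2 difference 0.11 ± 0.0862 SE; limma adjusted p = 0.406). Sucla2 stood at 1.44, 1.66 and 1.84 times Suclg2 in CGG 1, 2 and 3 and at 0.996, 1.01 and 1.09 times Suclg2 in CGG-Cit 1, 2 and 3. The mean log2 ratio was 0.71 ± 0.177 for CGG and 0.04 ± 0.0673 for CGG-Cit (SD, n = 3; exact permutation p = 0.1, adjusted p = 0.3), and a ratio within a library does not depend on its scaling. Suclg1, the shared alpha subunit, averaged 42.34 ± 6.08 and 33.79 ± 2.184 FPKM (limma adjusted p = 0.133).

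**Figure D4:**
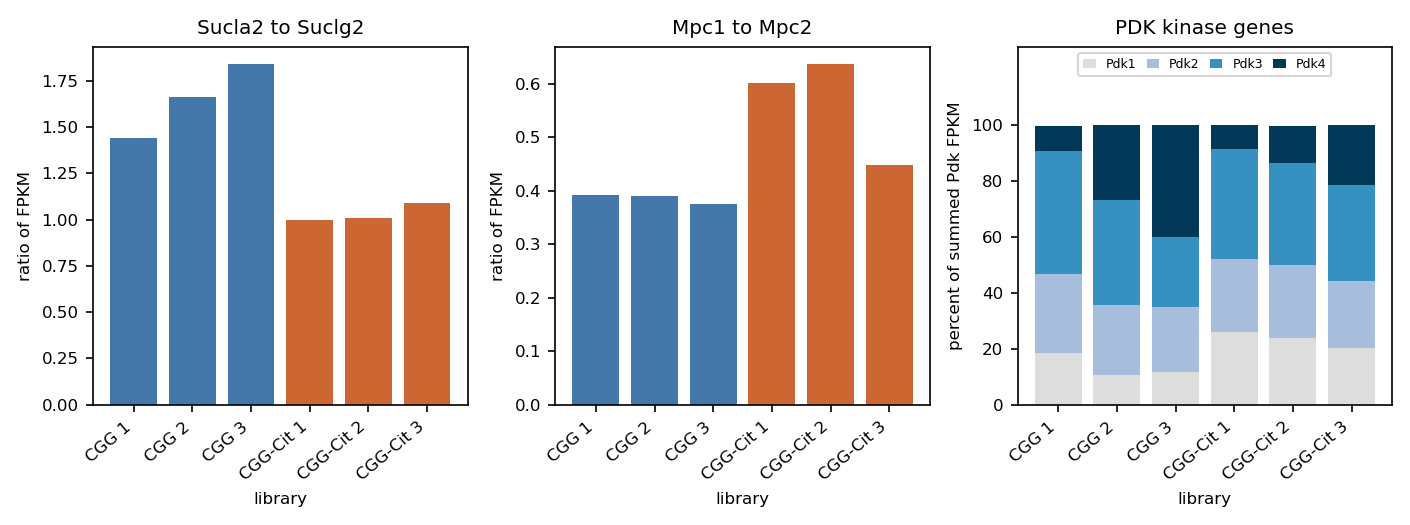
Bars give, for each library, the ratio of Sucla2 to Suclg2 FPKM (left), the ratio of Mpc1 to Mpc2 FPKM (middle) and the percent of summed FPKM held by each pyruvate dehydrogenase kinase gene (right), with CGG blue and CGG-Cit orange in the first panels. The 2 ratios separate the groups, whereas the Pdk4 share ranges from 9.0% to 39.9% within CGG alone.

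The 250 bases before the annotated start of these paired genes are shown because in each pair 1 gene fell and its partner did not pass. They are the RefSeq windows of the build GRCr8, read 5′ to 3′ on the gene's strand, for Sucla2 (chr15:55161644-55161893, forward strand), Suclg2 (chr4:129893938-129894187, reverse strand), Mpc1 (chr1:54996959-54997208, reverse strand) and Mpc2 (chr13:80261006-80261255, forward strand). Capitals mark a match to the NRF1 element.
Sucla2: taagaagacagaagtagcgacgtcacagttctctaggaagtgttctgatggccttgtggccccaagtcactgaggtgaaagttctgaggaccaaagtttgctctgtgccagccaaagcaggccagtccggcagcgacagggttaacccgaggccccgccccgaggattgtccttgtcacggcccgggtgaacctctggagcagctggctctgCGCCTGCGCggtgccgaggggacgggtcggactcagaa
Suclg2: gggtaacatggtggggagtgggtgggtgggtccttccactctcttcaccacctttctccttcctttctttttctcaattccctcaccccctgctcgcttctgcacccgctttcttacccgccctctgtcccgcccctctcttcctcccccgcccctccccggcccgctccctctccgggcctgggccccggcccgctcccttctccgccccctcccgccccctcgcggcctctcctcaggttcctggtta
Mpc1: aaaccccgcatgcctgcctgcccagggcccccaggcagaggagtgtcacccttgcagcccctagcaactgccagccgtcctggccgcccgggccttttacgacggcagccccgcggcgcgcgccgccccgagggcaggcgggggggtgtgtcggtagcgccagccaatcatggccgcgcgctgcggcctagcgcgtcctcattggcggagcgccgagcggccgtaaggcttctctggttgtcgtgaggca
Mpc2: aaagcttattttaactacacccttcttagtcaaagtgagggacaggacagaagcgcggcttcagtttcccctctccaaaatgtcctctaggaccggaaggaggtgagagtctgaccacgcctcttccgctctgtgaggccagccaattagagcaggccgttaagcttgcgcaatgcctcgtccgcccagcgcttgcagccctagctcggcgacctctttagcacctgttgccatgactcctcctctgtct

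Among these stretches the NRF1 element, searched on both strands as GCGCANGCG, stood only before Sucla2. NRF1 is a transcription factor of nuclear genes for mitochondrial proteins. Windows of 300 bases, 250 before and 50 after the start, were found for 33 members, and not for Pdp1, Idh3a and Pcx. The element stood in 3 of these 33 windows (Dld, Sucla2 and Sdha, the last with 3 matches), 9.09%, against 6.26% of 27457 windows of all genes. The element of the oestrogen-related receptors, searched as TNAAGGTCA on both strands, stood in 1 window, that of Sdhd, 3.03%, against 1.15% of all windows. A match is a string of letters and not a shown binding site.

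In the closing span, from succinate to oxaloacetate, the soluble enzymes passed and the membrane-bound one did not. Fh (ENSRNOG00000003653, listed on chromosome 13 from 93651484 to 93677377), fumarate hydratase, measured 41.47, 40.92 and 48.22 FPKM in CGG and 26.76, 28.74 and 32.41 FPKM in CGG-Cit, and fell by 0.56 ± 0.110 (SE; limma adjusted p = 0.0234). Mdh2 (ENSRNOG00000001440, listed on chromosome 12 from 23941448 to 23954431), the mitochondrial malate dehydrogenase, measured 111.8, 148.7 and 153.6 FPKM in CGG and 87.25, 81.20 and 88.51 FPKM in CGG-Cit, and fell by 0.67 ± 0.137 (SE; limma adjusted p = 0.0248). In both genes the groups were apart, with CGG 1 the lowest CGG library of Mdh2. Fh lost the call under TPM (0.0766) and on removal of any library other than CGG-Cit 3 (highest adjusted p 0.0813). Mdh2 lost it on removal of the second or the third CGG library or of the first or the second CGG-Cit library (0.0867).

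Succinate dehydrogenase, which is also complex II of the respiratory chain, has 4 subunit genes. Sdha, the flavoprotein, had means of 78.57 ± 8.596 FPKM for CGG and 64.99 ± 2.658 for CGG-Cit (SD, n = 3) with no overlap, and did not pass (log2 difference -0.27 ± 0.104 SE; limma adjusted p = 0.124). Sdhb, the iron-sulfur subunit, averaged 93.87 ± 14.94 and 91.03 ± 5.80 FPKM (log2 difference -0.03 ± 0.136 SE; limma adjusted p = 0.884). The membrane anchors Sdhc and Sdhd averaged 94.3 ± 13.97 and 104.3 ± 12.68 FPKM in CGG and 84.41 ± 6.522 and 87.62 ± 4.952 FPKM in CGG-Cit, with limma adjusted p values of 0.456 and 0.181. That the soluble enzymes and complex II differ in response was not tested.

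Among the enzymes that fill or drain the cycle, Pck2 had the largest fold change of the called members. Pck2 (ENSRNOG00000018536, listed on chromosome 15 from 34216833 to 34224193), the mitochondrial phosphoenolpyruvate carboxykinase that draws oxaloacetate out of the cycle, measured 24.34, 25.91 and 27.73 FPKM in CGG and 12.03, 14.83 and 17.48 FPKM in CGG-Cit. The groups stood well apart, and CGG-Cit 3 was the nearest to CGG. Pck2 fell by 0.79 ± 0.142 (SE; limma adjusted p = 0.0193), and it lost the call on removal of the second or the third CGG library or of the second CGG-Cit library (highest adjusted p 0.0736). Pcx, pyruvate carboxylase, had the lowest level of the 36 members, at 7.281 ± 0.860 FPKM for CGG and 7.403 ± 1.846 for CGG-Cit (SD, n = 3; log2 difference 0.00 ± 0.187 SE; limma adjusted p = 0.996). It shares its locus with Lrfn4 on the other strand, and the strand setting of the counting is not given in the sources used here. Its ratio to Pdha1 was 0.129 to 0.187 in CGG and 0.121 to 0.223 in CGG-Cit (exact permutation p = 0.6). Me2, the mitochondrial malic enzyme, averaged 22.29 ± 2.816 and 19.99 ± 2.084 FPKM (limma adjusted p = 0.441).

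Glud1 was the member that rose. Glud1 (ENSRNOG00000057367, listed on chromosome 16 from 10662021 to 10695557), glutamate dehydrogenase, measured 81.32, 80.71 and 75.38 FPKM in CGG and 91.81, 104.1 and 104.2 FPKM in CGG-Cit. All CGG-Cit libraries were above all CGG libraries, by 0.33 ± 0.0897 (SE) on the log2 scale, with a limma adjusted p of 0.0484, just inside the threshold. The call ended on removal of any 1 library (highest adjusted p 0.147). It also ended without the filter on low values, with quantile normalization, with robust variance estimation and with the replicate number as a block. It held with voom (0.0461) and under TPM (0.0224). Got2, the mitochondrial aspartate aminotransferase that feeds glutamate carbon in by transamination, averaged 96.02 ± 14.80 and 82.94 ± 13.88 FPKM (limma adjusted p = 0.388). The ratio of Got2 to Glud1 was 1.0, 1.18 and 1.47 in CGG and 1.08, 0.712 and 0.727 in CGG-Cit, so CGG-Cit 1 lay within the CGG range (exact permutation p = 0.2).

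The last members are an enzyme of ketone body use and a pair of carriers. Oxct1, which activates ketone bodies for oxidation, averaged 48.5 ± 4.524 and 46.17 ± 8.951 FPKM in CGG and CGG-Cit (limma adjusted p = 0.741). Slc25a10, the dicarboxylate carrier, averaged 12.57 ± 0.713 and 13.93 ± 2.117 FPKM (limma adjusted p = 0.498). Slc25a11, the carrier that exchanges oxoglutarate for malate, measured 73.53, 88.09 and 97.20 FPKM in CGG and 67.43, 49.01 and 64.68 FPKM in CGG-Cit. Its groups did not overlap, and it missed the threshold (log2 difference -0.51 ± 0.159 SE; limma adjusted p = 0.0702), which it passed with quantile normalization.

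The members shared an order among the CGG libraries. CGG 1 was the lowest CGG library in 29 of the 36 members and CGG 3 the highest in 26. Over the members, the median log2 difference from the CGG mean was -0.172, 0.026 and 0.138 in CGG 1, 2 and 3. Over all genes tested it was -0.013, -0.001 and 0.016. The order was not particular to the members, as 18 respiratory chain and membrane genes summed to 2406, 2894 and 3173 FPKM in these libraries. The summed level of the 36 was 1641, 1955 and 2084 FPKM in CGG 1, 2 and 3 and 1553, 1531 and 1528 FPKM in CGG-Cit 1, 2 and 3. The spread within CGG was thus wider than that within CGG-Cit, and CGG 1 stood nearest to CGG-Cit. The summed skeletal muscle markers had another order, 10380, 7849 and 8826 FPKM in CGG 1, 2 and 3 and 122.0, 53.9 and 427.8 FPKM in CGG-Cit 1, 2 and 3. CGG 1 had the highest sum of muscle markers and the lowest sum of the members within CGG. Single muscle markers did not all share the order of their sum, as Pvalb was highest in CGG 1 and Mb was lowest there within CGG. The osteoblast sum, 10710, 13380 and 15300 FPKM in CGG, had the members' order within that group. It did not in CGG-Cit, where it was 5175, 9688 and 9689 FPKM. Col1a1 was its largest part, at 5405, 7306 and 8623 FPKM in CGG 1, 2 and 3. Not every osteoblast marker kept this order, as Runx2 measured 14.35, 14.40 and 12.01 FPKM in CGG. The sum of 8 genes of brown fat, heart or slow fibres also held CGG 1 lowest, at 121.8, 294.1 and 280.6 FPKM in CGG and 3.505 to 11.72 FPKM in CGG-Cit. The part of any of these cell types in the members' differences was not tested.

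**Figure D5:**
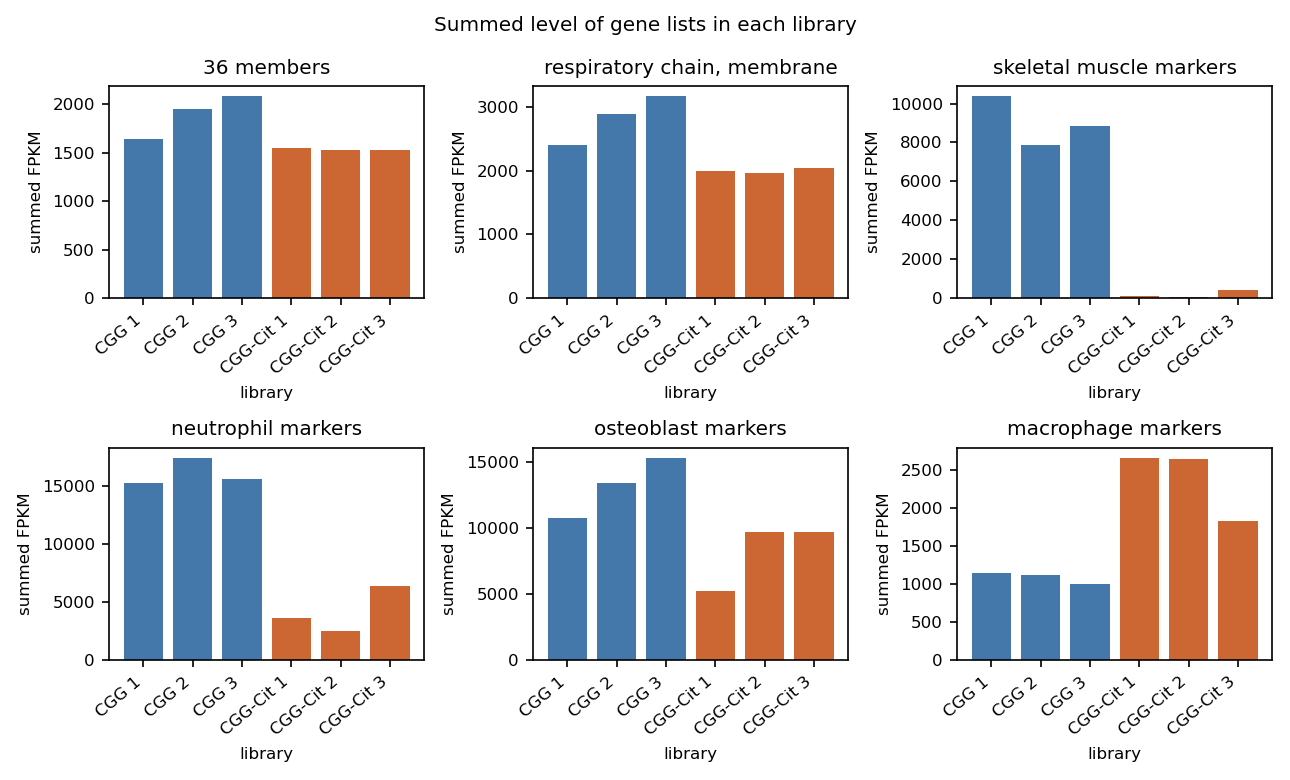
Summed FPKM (y axis, from 0) in each library of the 36 members, 18 respiratory chain and membrane genes, and markers of skeletal muscle, neutrophils, osteoblasts and macrophages, with CGG blue and CGG-Cit orange. CGG 1 is the lowest CGG bar for the members but the highest for muscle, and the members' 3 CGG-Cit bars are level.

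Some other genes of the same pathways passed as well, beside the 9.78% of all genes tested that fell and the 7.75% that rose. Of 17 tested genes among 20 further genes of pyruvate and TCA metabolism, 1 rose. Idh1, the cytosolic counterpart of Idh2, rose from 29.84 ± 2.868 to 41.19 ± 2.483 FPKM (limma adjusted p = 0.0291). It lost the call on removal of the first or the third CGG library or of any CGG-Cit library (highest adjusted p 0.102).

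Of 21 further genes of anaplerosis and fuel entry, all tested, 4 fell and 1 rose. Me1, the cytosolic malic enzyme that makes NADPH, fell from 20.78 ± 1.117 to 11 ± 1.344 FPKM (SD, n = 3; limma adjusted p = 0.00955) and passed in all 16 alternative fits. Slc25a12, the aspartate and glutamate carrier of muscle and brain, fell from 21.83 ± 2.971 to 13.66 ± 0.453 FPKM, and Gpt2, the mitochondrial alanine aminotransferase, from 4.551 ± 1.294 to 1.75 ± 0.439 FPKM (limma adjusted p = 0.0199 and 0.0256). Dbt, a subunit of the branched-chain oxoacid dehydrogenase, rose from 11.81 ± 0.586 to 15.91 ± 1.277 FPKM (limma adjusted p = 0.0369). The fourth fall was that of Got1, the cytosolic partner of Got2, at -0.63 (limma adjusted p = 0.0415), named here after its value was seen. Slc25a12, Gpt2, Dbt and Got1 each lost the call on removal of the third CGG library, of the first or the second CGG-Cit library, and of 1 or 2 others (highest adjusted p 0.121). Got1 lost it under TPM too (0.0661).

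Of 18 widely expressed genes of the respiratory chain and the mitochondrial membranes, 9 fell, and all 18 had a negative fold change (median -0.47). Vdac1, the main pore of the outer membrane, fell by 0.82, Cox5a of cytochrome oxidase by 0.72, Uqcrfs1, the Rieske protein of complex III, by 0.61 and Atp5f1a, the alpha subunit of ATP synthase, by 0.70 (limma adjusted p = 0.0145 to 0.0234). Of the 9, 5 fell under TPM, where the median was -0.30. Vdac1 lost the call on removal of CGG-Cit 2 (adjusted p = 0.0585). The other 3 lost it on removal of that library or of the second or the third CGG library, and Uqcrfs1 and Atp5f1a also on removal of CGG-Cit 1 (highest adjusted p 0.0824). Among 7 tested of 10 regulators of mitochondrial biogenesis, Perm1, a muscle regulator of oxidative genes, fell from 4.007 ± 1.872 to 0.179 ± 0.0391 FPKM (limma adjusted p = 0.0123), but not without CGG-Cit 2 (adjusted p = 0.0528). Tfam, which maintains the mitochondrial genome, averaged 24.43 ± 2.536 and 18.59 ± 0.943 FPKM (limma adjusted p = 0.0514), and Esrra, the oestrogen-related receptor alpha, 25.96 ± 4.381 and 26.77 ± 3.27 FPKM (0.844). Nrf1 averaged 14.75 ± 1.328 and 11.12 ± 0.926 FPKM, with no overlap (0.0574). Of the 7 tested, 5 had a negative fold change and 2 a positive one. Ppargc1a, Esrrg and Esrrb lay under the filter on low values. Their means were 0.541, 0.353 and 0.0168 FPKM in CGG and 0.0931, 0.0396 and 0.0637 FPKM in CGG-Cit.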

How the data were processed

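The values analysed were the FPKM that the authors deposited as 1 table of all genes, with 1 column for each of the 6 libraries. The build mRatBN7.2 and the tools DESeq2 1.20.0, featureCounts 1.5.0-p3 and HISAT2 2.0.5 stand in the submitters' processing notes, without role or order. No source used here gives the annotation or strand setting. Gene coordinates of the table are printed as listed and with no build, because its last gene on chromosome 1 ends at 282724300, beyond 270492571 in the GRCr8 gene table of RefSeq. FPKM times gene length gave whole multiples of 1 read, within 0.01 reads, for 100% of values above 0 in every library.

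Genes whose mean over the 6 libraries reached 0.5 FPKM were tested in R 4.3.3 with limma 3.58.1 (mean-variance trend, no block) on log2(FPKM + 1). A change of low genes is understated on this scale. Ratios between members were tested over libraries with an exact two-sided permutation test. The members and lists were chosen with earlier results of these data known, and p-values were adjusted over all genes, never over a list. Members that passed, and the 6 with the largest absolute fold change, were given by library. Genes of the 4 other pathway lists were named if they passed, up to 4 a list by smallest p; 1 gene that this rule names is not reported here. Tfam, Esrra, Nrf1, Ppargc1a, Esrrg, Esrrb, Got1, Mb, Pvalb, Col1a1 and Runx2 were named after their values were seen. Of the 36 members, 5 overlap another listed gene (Pdha1, Cs, Idh2, Ogdh and Pcx), so their reads may be shared. The 10 marker lists cover muscle, neutrophils, red cells, macrophages, osteoblasts, osteoclasts, fibroblasts, fat, oxidative cells and the cell cycle. Of these, 2 of 8 osteoclast markers and 2 of 8 adipocyte markers tested rose, and 4 of 6 markers of oxidative cells and all 10 cell cycle genes fell. Alternatives were other pseudocounts (0.1 and 0.5), filters and scalings, robust variances, a replicate block, voom on the recovered reads and each library left out in turn.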

Additional observations from a re-analysis of the deposited data

How the results depend on the processing

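None of the 11 calls among the members held in all 16 alternative fits, and none of the 11 changed sign. Over all genes, 1237 were higher and 1561 lower. TPM scaling gave 2203 and 948, and the replicate number as a block gave 612 higher and 1055 lower. Without 1 library the counts ran from 122 to 1312 higher and from 190 to 1622 lower. Of the members, 1 rose and 10 fell, and without 1 library 0 rose and 0 to 9 fell. With the replicate block 0 members rose and 6 fell, and the calls of Mpc2, Pdhb, Pdk3, Mdh2 and Glud1 were lost. Deviations of same-numbered libraries from their group means had correlations of -0.096, 0.002 and -0.078. With 3 libraries a group these values cannot settle whether the number pairs libraries, and the labels do not say. Without the filter on low values, with quantile normalization and with robust variances 0 members rose (in each of these limma fits 1 member with a positive fold change had an unadjusted p under 0.05, as 1 or 2 had without 1 library, and 1 rose with voom). The cause was not tested.

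Signs changed for members that did not pass. Under TPM, log2 fold changes turned to 0.168 for Mpc1, 0.064 for Dlat, 0.038 for Dlst, 0.143 for Sdhb, 0.025 for Sdhc, 0.022 for Me2 and 0.09 for Oxct1. With voom they turned to 0.033 for Mpc1 and 0.008 for Sdhb, and with a pseudocount of 0.1 to -0.001 for Pcx. With 1 library left out, they ran from -0.088 to 0.133 for Mpc1, from -0.185 to 0.033 for Dlat, from -0.047 to 0.064 for Pdk1, from -0.000 to 0.202 for Ogdh, from -0.171 to 0.038 for Sdhb, from -0.137 to 0.187 for Pcx and from -0.195 to 0.079 for Oxct1. The difference between the groups (CGG-Cit minus CGG) in the log2 ratio of Idh2 to the Idh3 mean, 0.051 with all libraries, ran with 1 library left out from -0.042 to 0.108. Depth limited little, as every member had at least 84 fragments in each library.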
